A study of Mus musculus with 7 samples.

Results

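The 43 genes described here are a list of cell cycle and proliferation genes named by symbol and drawn from the 22027 genes of a mouse heart RNA-seq table. All 43 symbols matched a row through its Ensembl identifier. Messenger RNA had been sequenced from the left ventricle of C57BL/6J mice aged 12 months, in 4 libraries labelled G3, which are telomerase-deficient, and 3 libraries labelled G3 PGC1aOE, which carry the same deficiency and are labelled as overexpressing PGC1alpha, a transcriptional coactivator of mitochondrial genes. All 7 libraries therefore share the telomerase deficiency, and a group with telomerase was not analysed here. The promoter that drives PGC1alpha and whether any libraries come from littermates are not stated in the labels. The p-values set group differences against the spread between these libraries only. They treat the libraries as independent, which the labels do not establish.

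The cell division cycle is run by cyclins and the cyclin-dependent kinases (CDKs) that they activate. D-type cyclins with Cdk4 or Cdk6 act at the entry from G1, cyclin E with Cdk2 at the start of DNA replication, and cyclins A and B with Cdk1 in late replication and mitosis, while CDK inhibitors of the Cip/Kip and INK4 families hold these kinases back. Most cardiomyocytes of the adult mouse have left the cycle, and division in the adult heart is largely that of other cells, such as endothelial cells, fibroblasts and leukocytes. For that reason the raw counts come first below.

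Total counts ran from 10106705 to 16056740 per library. Sample descriptions carry a code number of unstated meaning. It is 83 in G3 4, 81 in G3 PGC1aOE 2, 82 in G3 PGC1aOE 3 and below 80 in the other 4. The 3 libraries with code numbers of 80 and above are also the 3 deepest. The codes also hold text, likewise unexplained, which reads G3 for these 3 libraries and for G3 2. For G3 PGC1aOE 1, alone in its group, the text reads G2, as it does for G3 replicates 1 and 3 despite their titles. A letter P stands in the code of every PGC1aOE library and, within the G3 group, only in that of G3 4. Cardiomyocyte markers were abundant in every library, with a summed level of 50717 to 76664 CPM (counts scaled to the TMM-adjusted library size), as the tissue label implies. Ppargc1a, which encodes PGC1alpha, had 1038, 768, 1320 and 1153 counts in G3 replicates 1 to 4 and 1326, 603 and 789 in PGC1aOE replicates 1 to 3. Its log2 fold change was −0.38 ± 0.34 (SE) (edgeR, adjusted p = 0.847), so the measured message did not bear out the label, and each direction given here rests on the label.

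Many genes of the cycle are switched together from short promoters. A cell cycle homology region (CHR, TTTGAA or TTTAAA) with CCAAT boxes is known from genes of late replication and mitosis, and E2F sites (searched as TTTCCCGC, TTTCGCGC, TTTGGCGC or TTTGCCGC) from genes of replication. As examples of a motif-rich and a motif-free start, the 250 bases before the first listed start are given for single members. These are the sparse Mki67, Top2a and Cdk1, then Mcm6, a replication gene of middle level, and Ccnd3, an abundant D-type cyclin. The sequences are from RefSeq on build GRCm38.p6, 5′ to 3′ in the direction of the gene, and capitals mark any match to these motifs on either strand. The Mki67 stretch is chr7:135716380-135716629 (minus strand), the Top2a stretch chr11:99024190-99024439 (minus), the Cdk1 stretch chr10:69352913-69353162 (minus), the Mcm6 stretch chr1:128359706-128359955 (minus) and the Ccnd3 stretch chr17:47504801-47505050 (plus).
Mki67: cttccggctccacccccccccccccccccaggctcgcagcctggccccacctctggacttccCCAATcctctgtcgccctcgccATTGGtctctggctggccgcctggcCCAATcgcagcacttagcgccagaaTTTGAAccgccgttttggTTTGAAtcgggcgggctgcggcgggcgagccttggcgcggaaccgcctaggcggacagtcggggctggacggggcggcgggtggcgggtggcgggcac
Top2a: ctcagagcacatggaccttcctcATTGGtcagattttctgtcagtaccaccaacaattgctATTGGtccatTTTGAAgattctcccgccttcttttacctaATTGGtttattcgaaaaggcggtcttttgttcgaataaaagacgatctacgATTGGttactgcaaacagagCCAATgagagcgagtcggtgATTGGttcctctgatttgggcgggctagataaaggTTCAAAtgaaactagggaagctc
Cdk1: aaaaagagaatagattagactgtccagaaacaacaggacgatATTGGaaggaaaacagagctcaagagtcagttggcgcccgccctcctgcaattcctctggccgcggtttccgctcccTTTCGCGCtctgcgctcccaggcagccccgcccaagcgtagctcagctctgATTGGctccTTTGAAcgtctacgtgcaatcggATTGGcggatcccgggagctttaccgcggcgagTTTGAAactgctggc
Mcm6: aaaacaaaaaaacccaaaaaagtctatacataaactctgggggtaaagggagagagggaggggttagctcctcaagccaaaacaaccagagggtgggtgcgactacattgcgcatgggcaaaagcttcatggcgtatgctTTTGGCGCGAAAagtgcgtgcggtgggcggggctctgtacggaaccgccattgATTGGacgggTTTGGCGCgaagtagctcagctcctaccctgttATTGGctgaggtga
Ccnd3: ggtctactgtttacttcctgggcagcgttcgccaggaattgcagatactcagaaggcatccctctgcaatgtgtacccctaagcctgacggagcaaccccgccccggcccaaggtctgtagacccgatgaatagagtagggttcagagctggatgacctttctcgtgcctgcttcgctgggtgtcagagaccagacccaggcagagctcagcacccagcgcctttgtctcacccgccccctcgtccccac
Mki67, Top2a and Cdk1 each held 2 CHR matches, beside 3, 6 and 3 CCAAT boxes, and Cdk1 also held 1 E2F match. Mcm6 held no CHR, 2 CCAAT boxes and 3 E2F matches, 2 of which overlap. The Ccnd3 stretch held none of these letters, but Ccnd3 has 2 listed starts and only the first was searched. Over the window described next, a CHR was found in most of the sparse members with a sequence and in few of the abundant ones. No motif sorted every member. The abundant Cenpa held 2 CHR and 2 CCAAT matches and Cdkn1b 1 and 3, while the sparse E2f1 held none and Birc5 1 CHR alone. A link of the motifs with level was not tested.

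Over windows of 300 bases, 250 before and 50 after the start, 34 of the 43 members had a sequence. A CHR was found in 19 of the 34, a CCAAT box in 24, an E2F match in 7, and a CHR together with at least 2 CCAAT boxes in 10. Among all 27025 promoters of the same length the shares were 27.8%, 37.9%, 2.3% and 3.2%. By role, a CHR was present in 7 of 9 members of the mitotic apparatus and in 3 of 10 replication members, whereas an E2F match was present in 0 of those 9 and in 4 of those 10. These are letter matches, not measured binding.

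Levels per length were highest for the D-type cyclins Ccnd2 and Ccnd3 and for Cdk4, and lowest for Cdc25c and Bub1, with members of most roles in between. FPKM is the deposited count scaled for depth and for a gene length. Ccnd2, encoding cyclin D2, had a mean of 58.9 FPKM over the 7 libraries, with a range from 33.97 to 87.3, followed by Ccnd3 at 34.98 and Cdk4 at 31.7. Cenpa, the histone H3 variant of centromeres, had 24.2 FPKM, and Pcna, the sliding clamp of DNA polymerases, 20.8. At the low end stood the mitotic checkpoint kinase gene Bub1 at 0.0848 FPKM and the phosphatase gene Cdc25c at 0.0144. The median over all 12674 tested genes was 7.54 FPKM, and Mki67, whose protein marks dividing cells, averaged 0.127. Ranges over libraries overlapped between most neighbours in this order, so the ranges alone do not order these genes. Ccnd3, at 30.94 to 43.56 FPKM, overlapped both Ccnd2 and Cdk4, and Cenpa, Pcna, Cdkn1b and Ccnd1 overlapped too. Cdkn2c at 4.88 to 8.30 FPKM and Rrm1 at 2.67 to 3.75 FPKM were apart.

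The order depends in part on the lengths. In 27 of the 43 members the longest transcript annotated in GENCODE vM21 exceeded the deposited length by more than 1.5 times, as it did in 59.9% of tested genes. For Top2a the lengths were 1696 bp deposited and 5221 bp annotated, and for Cdk6 2954 and 11525 bp. On the annotated lengths Cdk4 came first at 16.6, ahead of Ccnd2 at 15.2 and Pcna at 12.3, and Cdk1 moved from place 29 to 39.

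**Figure D1:**
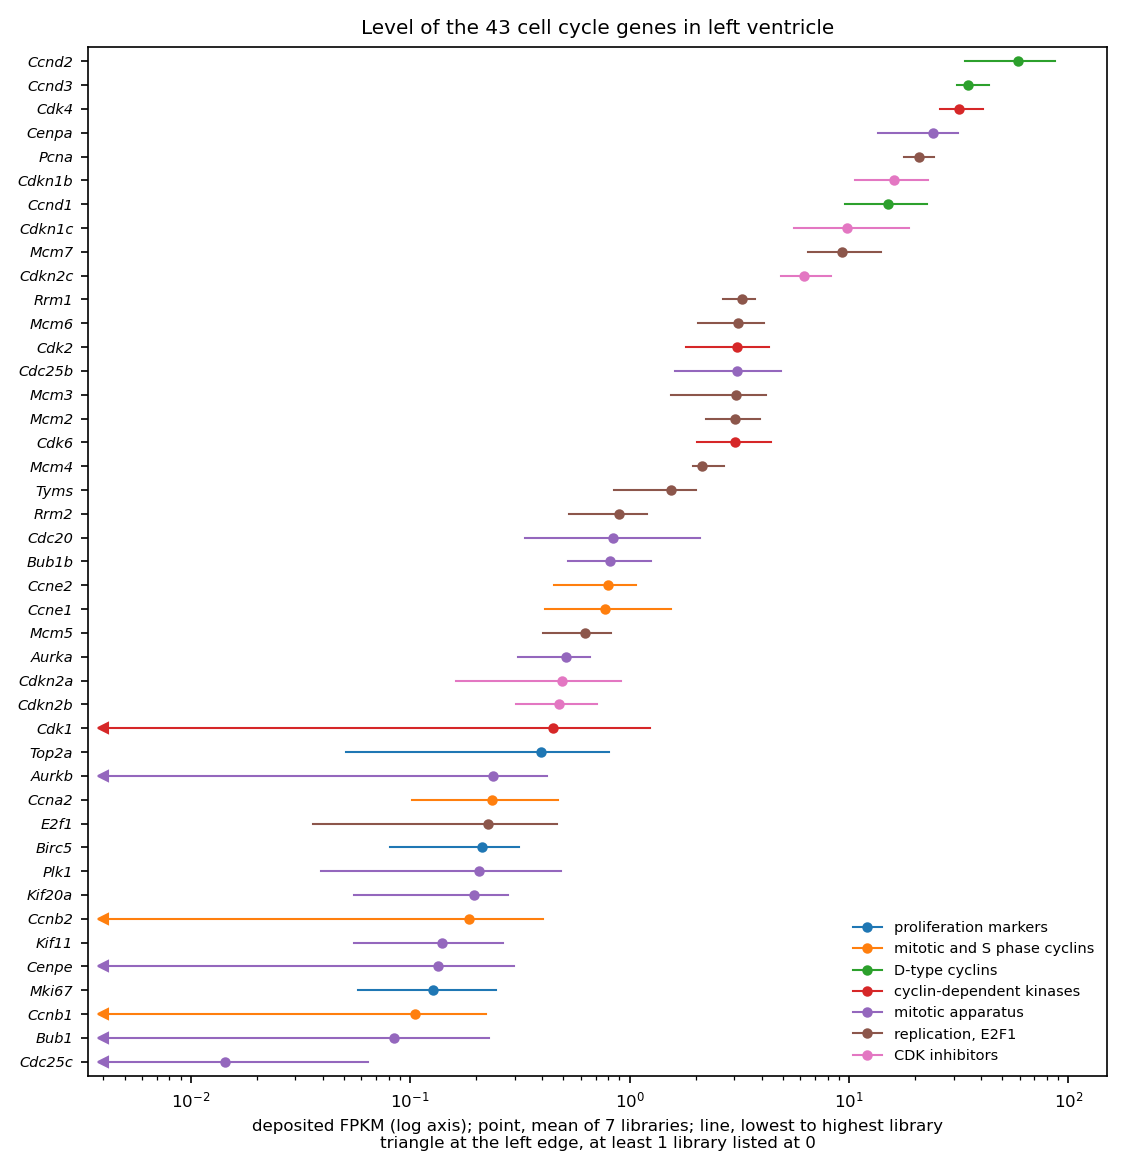
Deposited FPKM of the 43 members on a log axis, sorted by mean; points are means of 7 libraries, lines run from the lowest to the highest library, and triangles mark members listed at 0 in at least 1 library. Ccnd2, Ccnd3 and Cdk4 lead, and Cdc25c, Bub1 and Ccnb1 stand at the low end.

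The 43 members together drew 36962 counts over the 7 libraries, of which the 3 D-type cyclins held 40.5% and the 24 members with at most 40 counts in every library held 3.94%. The filter on low counts kept 28 members for the test and left 15 out. edgeR's quasi-likelihood test called 0 of the 28 higher and 0 lower at an adjusted p of 0.05, beside 0.0% of all 12674 genes, and every member had an adjusted p of at least 0.847. Unadjusted, 1 member was below 0.05, beside 4.32% of all genes. DESeq2 called none of the members, beside 0.0237% of genes, with 1 member unadjusted. In no member did the CPM of the groups fail to overlap, against 4.59% of tested genes. The median log2 fold change of the tested members was 0.11 (20 positive, 8 negative, from −0.30 to 1.13), next to 0.01 over all tested genes. The upper ends of the members' 95% intervals differed widely, with the highest, 2.87, in Top2a and 0.84 in Bub1b, which was sparse too.

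**Figure D2:**
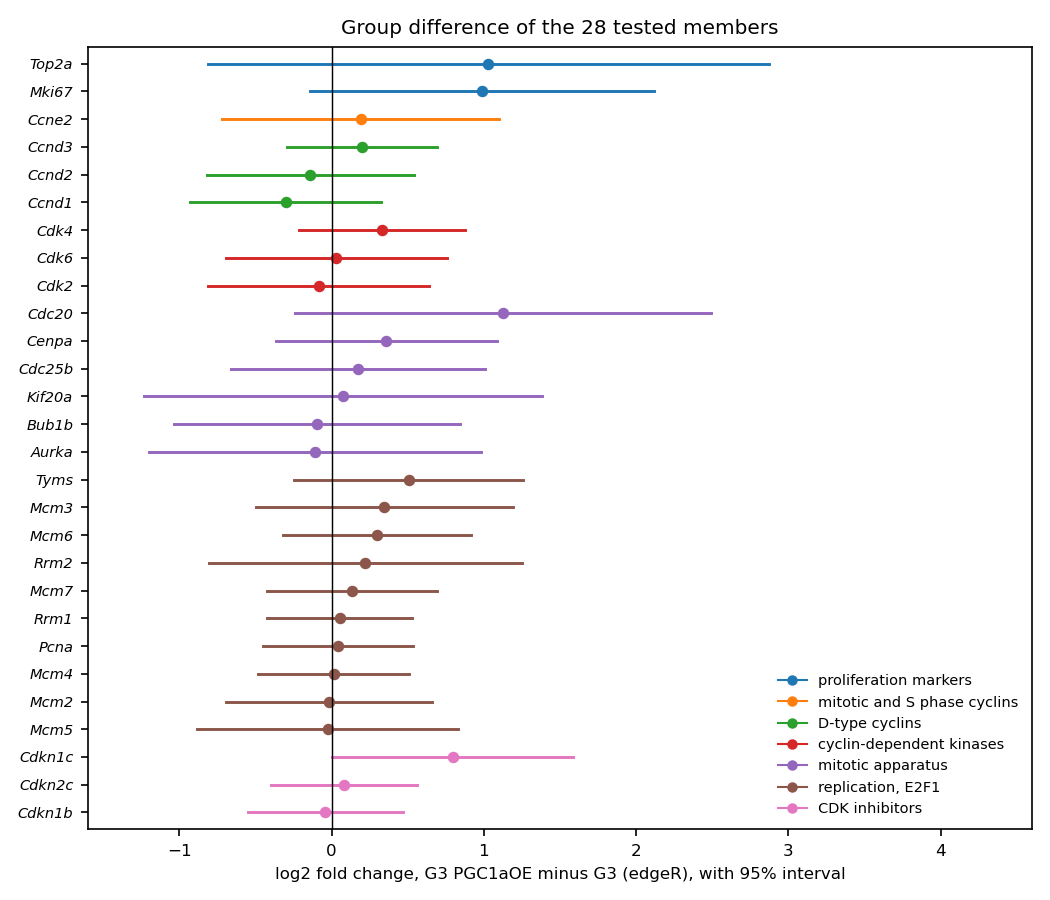
Log2 fold change of the 28 tested members, G3 PGC1aOE minus G3, with 95% intervals from edgeR; colours give the role. Intervals are narrow for Pcna, Rrm1 and Cdkn2c and wide for Top2a, Cdc20 and Kif20a, and only that of Cdkn1c lies above 0, starting at 0.0030.

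Among the D-type cyclins, which couple growth signals to G1 entry, none was called. Ccnd2 (ENSMUSG00000000184) had 1183, 888, 1362 and 1350 counts in G3 replicates 1 to 4 and 1657, 829 and 1105 in PGC1aOE replicates 1 to 3, so the highest and the lowest library were both labelled PGC1aOE. The means were 99.2 ± 24.04 CPM (SD, n = 4) in G3 and 90.0 ± 34.9 CPM (SD, n = 3) in PGC1aOE, a log2 fold change of −0.14 ± 0.31 (SE). Ccnd1 (ENSMUSG00000070348), cyclin D1, had 278, 436, 537 and 444 counts against 305, 300 and 532. G3 3 was high and G3 PGC1aOE 2 low, and the log2 fold change was −0.30 ± 0.28 (SE) (edgeR, adjusted p = 0.847; exact permutation p = 0.371, where 35 assignments allow no p below 0.0286). Leaving out 1 library moved it from −0.61 (without G3 PGC1aOE 3) to −0.12 (without G3 3). Ccnd3, with 384 to 585 counts in G3 and 423 to 766 in PGC1aOE, had 0.20 ± 0.22 (SE). Exons of Ccnd1 overlap Lto1 and those of Ccnd3 overlap Bysl on the opposite strand, and the library kit does not mark strand, so reads of these pairs cannot be told apart.

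Of the kinases, Cdk4 (ENSMUSG00000006728), a partner of the D-type cyclins, had 282, 424, 317 and 514 counts in G3 and 345, 654 and 583 in PGC1aOE. Its level was 31.0 ± 5.56 CPM (SD, n = 4) in G3 and 39.1 ± 10.9 CPM (SD, n = 3) in PGC1aOE. G3 PGC1aOE 1, at 26.7 CPM, lay inside the range of the G3 libraries. The log2 fold change was 0.33 ± 0.25 (SE) (edgeR, adjusted p = 0.847), and it was 0.17 without G3 PGC1aOE 2 and 0.54 without G3 PGC1aOE 1. Exons of Cdk4 overlap Tspan31. Cdk2 and Cdk6 had log2 fold changes of −0.09 and 0.03, each with an SE of 0.33.

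Cdk1 (ENSMUSG00000019942), the kinase that drives mitosis, was too sparse for the filter. Its counts were 0, 4, 1 and 3 in G3 replicates 1 to 4 and 1, 18 and 20 in PGC1aOE replicates 1 to 3. The libraries G3 PGC1aOE 2 and 3 thus stood alone, and G3 PGC1aOE 1 was level with the G3 libraries. In CPM, with exact 95% Poisson intervals that cover counting error only, G3 4 had 0.225 (0.0465 to 0.659), G3 PGC1aOE 2 had 1.31 (0.776 to 2.07) and G3 PGC1aOE 3 had 1.47 (0.899 to 2.27). The 0 counts of G3 1 allow a level of up to 0.273 CPM if 3 counts are taken as the floor, and 0.336 CPM is the upper end of the exact interval. The exact permutation p was 0.20, and with no filter on low counts edgeR gave a log2 fold change of 2.49 ± 0.88 (SE) (unadjusted p = 0.0135, adjusted p = 0.816).

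The proliferation markers were rare in every library. Mki67 (ENSMUSG00000031004) had 6, 7, 15 and 18 counts in G3 replicates 1 to 4 and 12, 37 and 27 in PGC1aOE replicates 1 to 3. With G3 PGC1aOE 2 and 3 above all others and G3 PGC1aOE 1 between G3 libraries, the groups overlapped. The log2 fold change was 0.99 ± 0.51 (SE) (edgeR, unadjusted p = 0.0804, adjusted p = 0.847), and the exact permutation p was 0.171. Leaving out G3 PGC1aOE 2 gave 0.63. Top2a (ENSMUSG00000020914), the DNA topoisomerase that untangles replicated chromosomes, had 3, 3, 3 and 16 counts against 1, 19 and 22. Here G3 4 joined G3 PGC1aOE 2 and 3 at 1.202, 1.38 and 1.62 CPM, and the other 4 libraries were at or below 0.273 CPM. Top2a had a log2 fold change of 1.03 ± 0.83 (SE) (edgeR, adjusted p = 0.847), and it had 0.55 without G3 PGC1aOE 3 and 1.56 without G3 PGC1aOE 1. Birc5, survivin of the chromosomal passenger complex, had 5, 5, 2 and 9 counts against 2, 10 and 10 and was not tested.

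The cyclins of replication and mitosis were sparse too, at most 20 counts in any library. Ccna2, cyclin A2, had 2, 3, 6 and 4 counts in G3 and 2, 12 and 9 in PGC1aOE. Ccnb1 had 1, 2, 2 and 2 against 0, 5 and 3, and Ccnb2 had 1, 1, 7 and 4 against 0, 9 and 5. Both B cyclins, which activate Cdk1, were thus at 0 in G3 PGC1aOE 1 and at 3 or more in the other PGC1aOE libraries, and both have a named pseudogene that could take or give reads. Ccne1, cyclin E1, had 6, 16, 4 and 12 counts against 6, 8 and 8. The only cyclin of this class that was tested, Ccne2 (cyclin E2), had 7, 16, 16 and 18 against 19, 14 and 20, a log2 fold change of 0.19 ± 0.41 (SE). Neither E cyclin had G3 PGC1aOE 2 and 3 above every G3 library in CPM, whereas Ccna2 and Ccnb1 did, but by few counts. For Ccnb1 the exact Poisson intervals were 0.0455 to 0.645 CPM in G3 PGC1aOE 3 and 0.0217 to 0.648 CPM in G3 3. For Ccna2 they were 0.303 to 1.26 CPM and 0.197 to 1.17 CPM in the same libraries. As these intervals overlap, a contrast between the cyclins cannot be read from these counts. Exons of Ccna2 overlap Exosc9 and those of Ccne2 overlap Ints8.

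**Figure D3:**
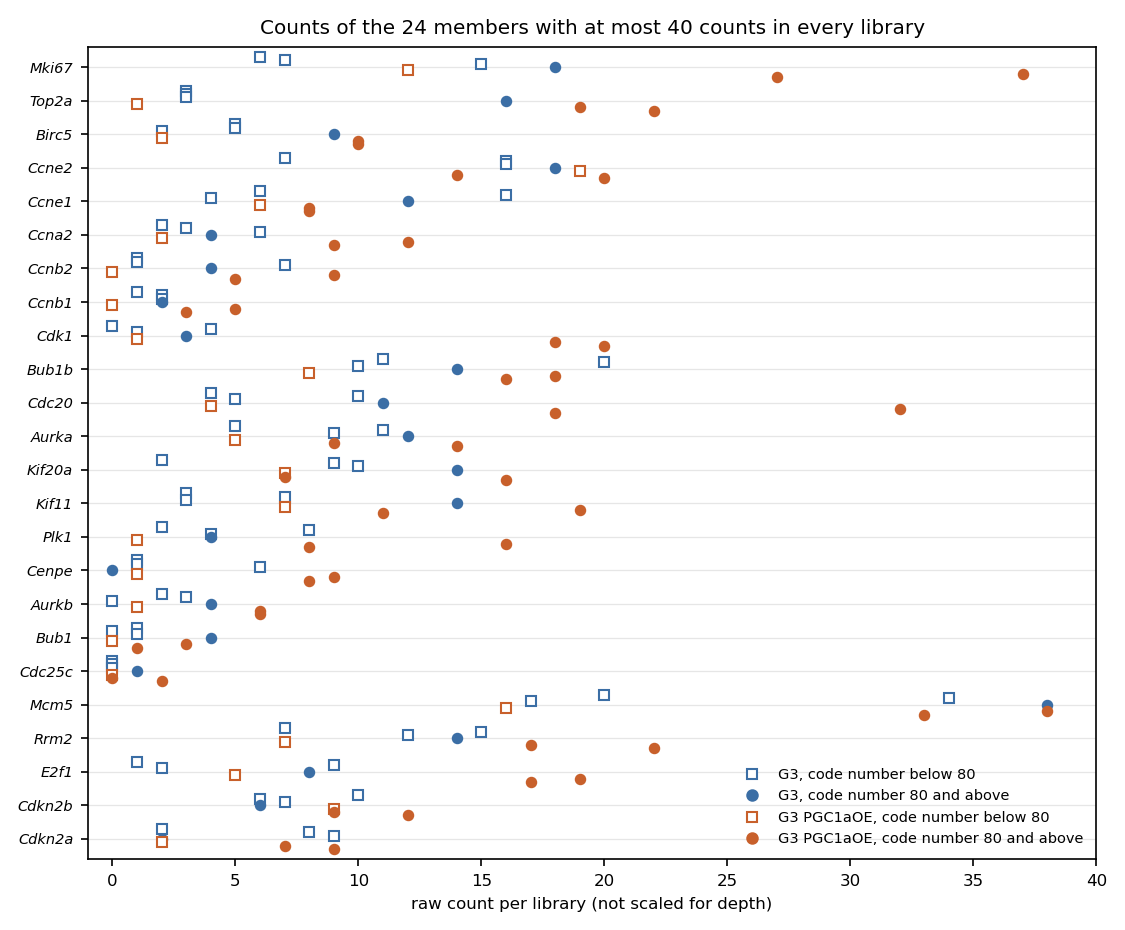
Raw counts, not scaled for depth, of the 24 members with at most 40 counts in every library; each symbol is 1 library, with colour for the group and filled circles for code numbers of 80 and above. For Cdk1, Cdc20 and Mki67 the filled orange circles, G3 PGC1aOE 2 and 3, lie to the right of all others, while the open orange square of G3 PGC1aOE 1 lies among or below the G3 libraries.

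In the mitotic apparatus, Cdc20 (ENSMUSG00000006398), which turns on the anaphase-promoting complex, had 4, 10, 5 and 11 counts in G3 and 4, 32 and 18 in PGC1aOE. G3 PGC1aOE 1 was lowest in CPM and the other 2 PGC1aOE libraries highest. The log2 fold change was 1.13 ± 0.62 (SE) (edgeR, unadjusted p = 0.0961, adjusted p = 0.847). Cenpa (ENSMUSG00000029177) was the abundant member, with 165, 317, 306 and 533 counts against 303, 470 and 603. The means were 26.5 ± 10.4 CPM (SD, n = 4) and 34.0 ± 10.4 CPM (SD, n = 3), and the log2 fold change was 0.36 ± 0.33 (SE). Its high libraries were again G3 4 and G3 PGC1aOE 2 and 3, and the fold change was 0.12 without G3 PGC1aOE 3 and 0.63 without G3 4. Cdc25b, a phosphatase that activates CDKs, had 24 to 78 counts and a log2 fold change of 0.17 ± 0.38 (SE).

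Of the kinases and motors of mitosis, Plk1, polo-like kinase, had 2, 8, 4 and 4 counts in G3 and 1, 16 and 8 in PGC1aOE. Aurkb, the kinase of the passenger complex, had 2, 3, 0 and 4 against 1, 6 and 6. The spindle motor gene Kif11 had 3, 7, 3 and 14 against 7, 19 and 11. In these genes the PGC1aOE libraries 2 and 3 exceeded library 1. Cenpe, a kinetochore motor, had 1, 1, 6 and 0 counts in G3 and 1, 9 and 8 in PGC1aOE. Bub1 had 1, 0, 1 and 4 against 0, 3 and 1, and Cdc25c 0, 0, 0 and 1 against 0, 0 and 2. At 0 to 4 counts, differences in Bub1 and Cdc25c were not detectable at this depth. Bub1b, Aurka and Kif20a, of the spindle checkpoint, the spindle pole and cytokinesis, were tested and had log2 fold changes of −0.10, −0.11 and 0.08 with SEs of 0.42, 0.49 and 0.59. Kif20a shares exon sequence with Cdc23 on the opposite strand.

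Replication genes were of middle abundance, and none was called. Pcna (ENSMUSG00000027342) had 177, 265, 182 and 297 counts in G3 and 210, 238 and 324 in PGC1aOE, or 18.6 ± 2.95 CPM (SD, n = 4) and 19.1 ± 4.09 CPM (SD, n = 3). Its log2 fold change was 0.04 with a 95% interval from −0.45 to 0.54, and it has 2 named pseudogenes. Tyms (ENSMUSG00000025747), thymidylate synthase, had 26, 22, 28 and 18 counts against 34, 45 and 33. The ranges met at G3 3 and G3 PGC1aOE 3, and the log2 fold change was 0.51 ± 0.34 (SE) (edgeR, unadjusted p = 0.166, adjusted p = 0.847). The 6 subunit genes of the MCM helicase, which unwinds DNA at origins, had log2 fold changes from −0.03 for Mcm5 to 0.35 for Mcm3. Mcm4 was the least variable abundant member, with a ratio of highest to lowest CPM of 1.35, and Rrm1, the large subunit of ribonucleotide reductase, had a ratio of 1.56. The small subunit gene Rrm2, whose message is restricted to cycling cells in most tissues, had 7 to 15 counts in G3 and 7, 17 and 22 in PGC1aOE. E2f1, a transcription factor of G1 exit, had 1, 9, 2 and 8 counts against 5, 19 and 17 and was not tested.

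Cdkn1c (ENSMUSG00000037664), encoding the inhibitor p57 of the Cip/Kip family, was the single member below an unadjusted p of 0.05. It had 203, 204, 120 and 190 counts in G3 replicates 1 to 4 and 148, 535 and 351 in PGC1aOE replicates 1 to 3. G3 PGC1aOE 1, at 11.5 CPM, was inside the G3 range of 10.8 to 18.5 CPM, and the other 2 PGC1aOE libraries were at 38.9 and 25.8 CPM. The log2 fold change was 0.79 ± 0.36 (SE) (edgeR, unadjusted p = 0.0493, adjusted p = 0.847; exact permutation p = 0.229). Without G3 PGC1aOE 2 it was 0.35. Cdkn1b (ENSMUSG00000003031), encoding p27, had 544, 613, 539 and 558 counts against 767, 460 and 570, a log2 fold change of −0.04 ± 0.23 (SE). Unlike Cdkn1c, it was highest in G3 PGC1aOE 1. Cdkn2c, an INK4 inhibitor gene, had 0.08 ± 0.22 (SE). The INK4 genes Cdkn2a and Cdkn2b, commonly followed as markers of senescence, had 2, 8, 9 and 2 against 2, 7 and 9 counts and 10, 6, 7 and 6 against 9, 9 and 12 counts. Reads of the 2 protein products of Cdkn2a, p16 and p19, were counted in 1 row.

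**Figure D4:**
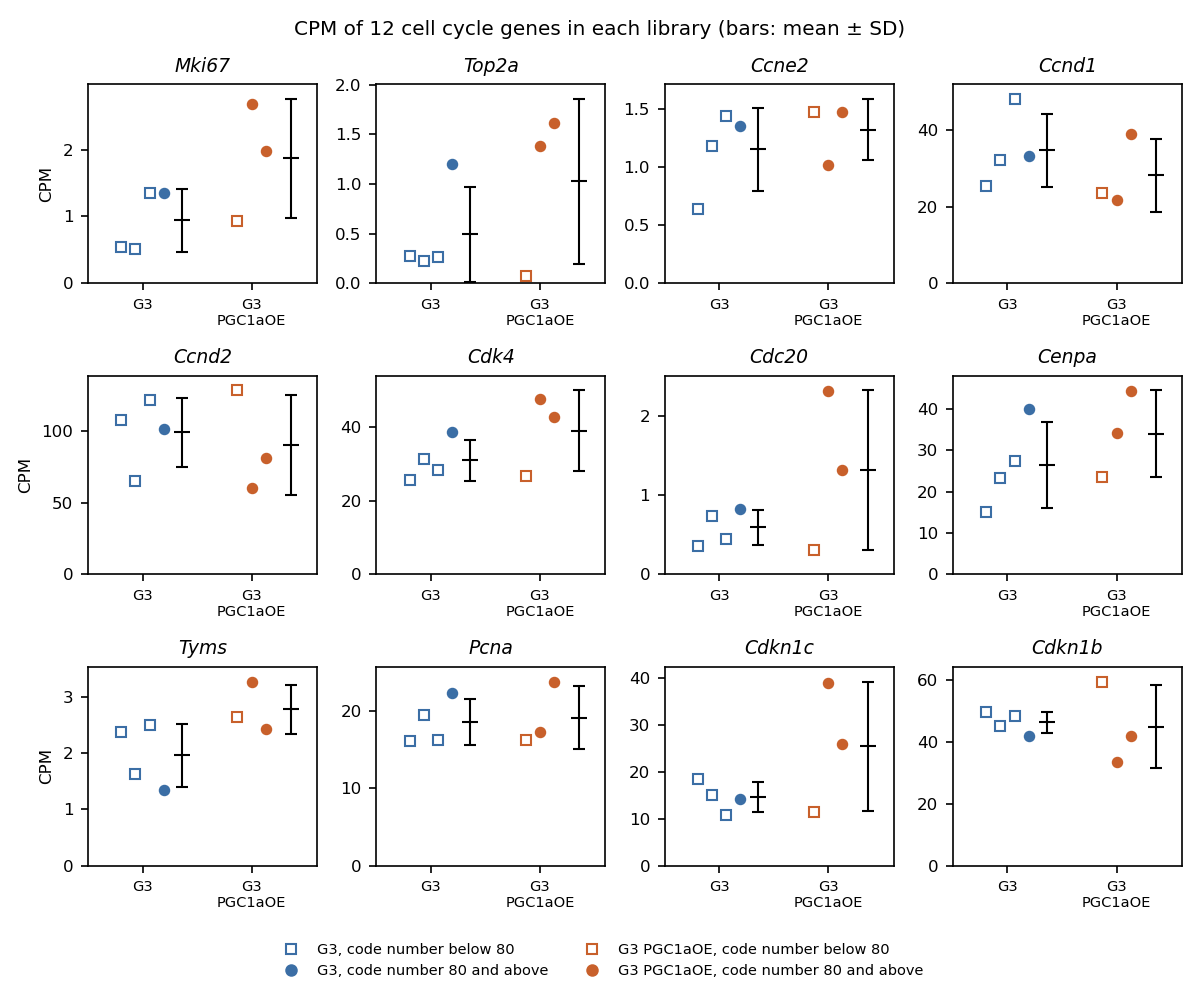
CPM of 12 members in each library, with the mean and SD of each group beside the points; filled circles are libraries with code numbers of 80 and above. The groups overlap in all 12, and in Top2a, Cdk4, Cdc20 and Cenpa the 3 filled circles lie above the open squares.

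Among the sparse members, G3 PGC1aOE 2 and 3 were highest, while G3 PGC1aOE 1 was level with the lowest G3 library. Summed counts for the 24 members with at most 40 counts in every library, a class set after the values were seen, were 102, 198, 151 and 232 in G3 replicates 1 to 4 and 116, 341 and 317 in PGC1aOE replicates 1 to 3. In CPM with exact Poisson intervals, the sum was 8.99 (7.43 to 10.8) in G3 PGC1aOE 1 but 24.8 (22.2 to 27.6) in G3 PGC1aOE 2 and 23.3 (20.8 to 26.0) in G3 PGC1aOE 3. The G3 libraries had 9.29 (7.58 to 11.3 in G3 1), 14.6, 13.5 and 17.4. Thus G3 PGC1aOE 2 and 3 lay above the G3 range. G3 PGC1aOE 1 and G3 1 could not be told apart, since their intervals overlap. G3 PGC1aOE 1 was below both others of its group in 20 of the 24, and G3 PGC1aOE 2 and 3 were above every G3 library in 11 of them, namely Mki67, Top2a, Birc5, Ccna2, Ccnb1, Cdk1, Cdc20, Aurkb, Cenpe, Rrm2 and E2f1. Over all 43 members these counts were 31 and 15. The first pattern was found in 34.8% of the 12674 tested genes and the second in 15.0%, and among 4803 genes of the table with at most 40 counts in every library and at least 2 in some library the shares were 25.8% and 11.6%. As the class was set after the values were seen, these shares are a description only. The group means of the sum were 13.7 ± 3.38 CPM (SD, n = 4) and 19.0 ± 8.73 CPM (SD, n = 3), a log2 ratio of 0.47. That ratio was 0.81 without G3 PGC1aOE 1, 0.24 without G3 PGC1aOE 2 and 0.30 without G3 PGC1aOE 3. By contrast, the 19 more abundant members summed to 388 ± 36.8 CPM (SD, n = 4) and 410 ± 18.5 CPM (SD, n = 3).

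Library code numbers moved with this pattern. In 11 of the 43 members, among them all 3 proliferation markers, Cdc20, Aurkb, Kif11, Cenpa, Cdk4, Ccnd3, Mcm3 and Mcm6, the 3 libraries with code numbers of 80 and above all exceeded the other 4. The same held for 8 of the 28 tested members and for 10.2% of all tested genes. Over all 43 members the median difference in log2 CPM was 0.17 in favour of PGC1aOE, with 34 positive and 9 negative, and with library totals in place of TMM it was 0.06. Over all tested genes it was 0.01 with 50.7% positive, but over the 4803 sparse genes it was 0.20 with 66.8% positive, so the members' sign count is to be read beside that of other sparse genes. Below a code number of 80, where 1 PGC1aOE library meets 3 G3 libraries, the median difference of the members was −0.09. At 80 and above, with 2 against 1, it was 0.15. Over all tested genes these medians were 0.008 and 0.010, and over the 4803 sparse genes 0.23 and 0.19. For Cdkn1c the differences were −0.33 and 1.14, for Cdc20 −0.49 and 0.96, for Top2a −0.81 and 0.28, and for Mki67 0.28 and 0.71. In a fit that includes the code number as below 80 or 80 and above, the same split of libraries, Top2a had a log2 fold change of −0.14. Cdc20 had 0.36 and Cdkn1c 0.38, and no member was below an unadjusted p of 0.05 in that fit (edgeR, adjusted p of 1.0 for each). What the number or the code text stands for, and the part of either in these differences, was not tested.

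Markers of T, NK and B cells and of the epicardium were high in the same libraries. The 10 markers of T, NK and B cells summed to 1.09, 2.95, 1.61 and 8.49 CPM in G3 replicates 1 to 4 and 2.48, 10.04 and 6.18 CPM in PGC1aOE replicates 1 to 3. Cd3g, a chain of the T cell receptor complex, had 0, 2, 1 and 19 counts against 5, 20 and 19. Cd4, the coreceptor of helper T cells, had 2, 17, 5 and 16 against 3, 16 and 12. At least 1 of the 10 was at 0 in every library except G3 PGC1aOE 2 and 3. The 6 epicardial and mesothelial markers, led by Wt1 and Aldh1a2, summed to 8.65, 8.42, 9.32 and 21.5 CPM against 11.2, 20.6 and 35.2 CPM. Endothelial markers, led by Fabp4 and Eng, ran from 1200 to 1689 CPM in G3, highest in G3 4, and were 1231, 2761 and 1871 CPM in PGC1aOE. The 7 adipocyte markers, most of whose counts are from Fabp4, which the endothelial list holds too, summed to 420, 499, 548 and 694 CPM in G3 and 437, 1303 and 872 CPM in PGC1aOE. Cfd, second in level, had 13, 301, 5 and 3 counts in G3 and 45, 170 and 204 in PGC1aOE, so G3 2 was its highest library by count. Of the 6 adipocyte markers that were tested, 6 were positive and 2 had an unadjusted p below 0.05 (edgeR), beside 4.32% of all tested genes. Fibroblast markers, led by Gsn and Dcn, ran from 1396 to 2277 CPM in G3 and were 1896, 2914 and 3253 CPM in PGC1aOE. Of these 10, 9 were positive and 1 negative, and 6 had an unadjusted p below 0.05 (edgeR). In 5 of the 10 the groups did not overlap, beside 4.59% of all tested genes. In both lists 0 were called. G3 4, which was high in Top2a and in the T cell markers, had the lowest fibroblast sum.

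Smooth muscle and pericyte markers, led by Rgs5 and Acta2, ran from 470 to 721 CPM in G3 and were 520, 1074 and 757 CPM in PGC1aOE, where libraries 2 and 3 were again above all G3 libraries.

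Granulocyte, erythroid and macrophage markers had other orders. The 9 granulocyte and mast cell markers, led by S100a9 and S100a8, summed to 129, 67.6, 88.9 and 16.5 CPM in G3 and 205, 16.002 and 24.8 CPM in PGC1aOE, so they were lowest in G3 4 and in G3 PGC1aOE 2 and 3. Erythroid markers, led by Hba-a1 and Alas2, were high in G3 3 and G3 PGC1aOE 1, at 216 and 157 CPM, and between 14.3 and 45.5 CPM elsewhere. The macrophage and monocyte sum, led by Lyz2 and C1qa, was 284 to 662 CPM in G3 and 582 to 630 CPM in PGC1aOE. The part of any of these cells in the members' differences was not tested, and in whole tissue a change in the number of such cells cannot be told apart from a change in message per cell.

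**Figure D5:**
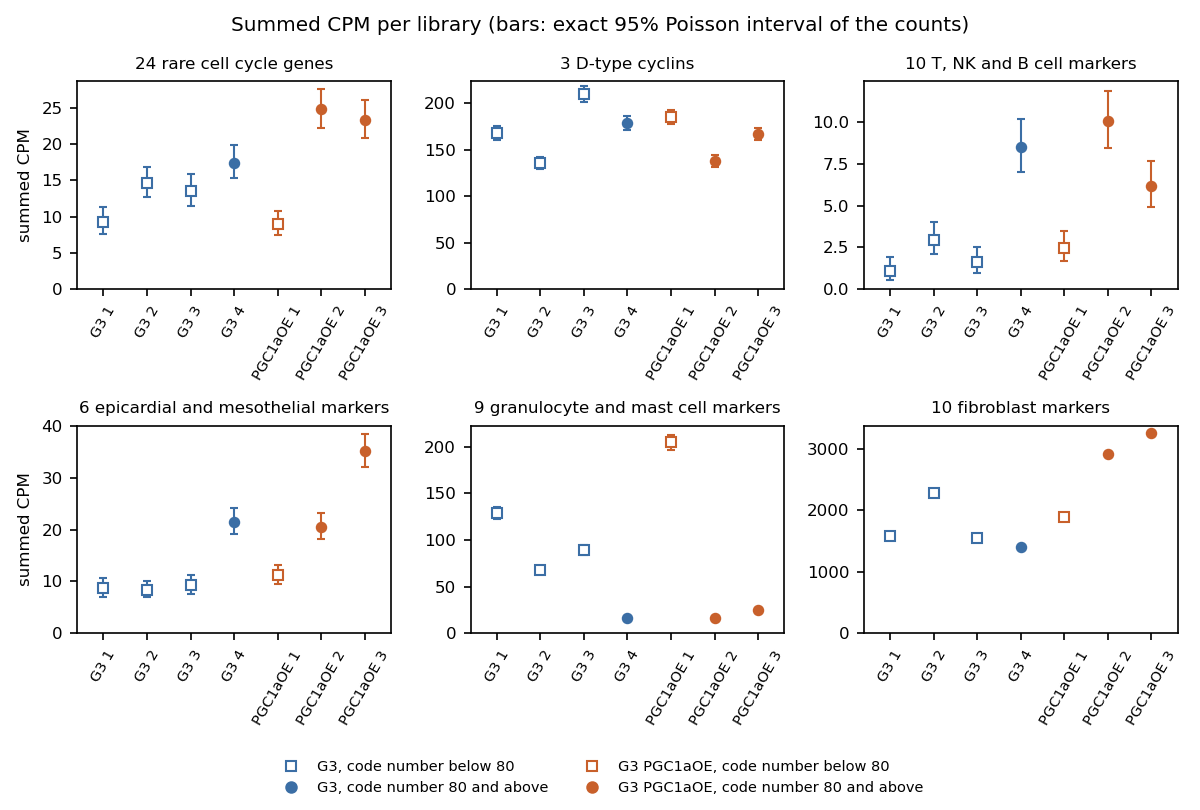
Summed CPM per library of the 24 sparse members, the 3 D-type cyclins and 4 marker lists, each axis from 0, with exact 95% Poisson intervals of the summed counts; filled circles are libraries with code numbers of 80 and above. The sparse members and the T, NK and B cell markers are high in G3 PGC1aOE 2, where granulocyte markers are low, and the D-type cyclins show no such pattern.

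A wider set of 165 cell cycle genes outside the 43 gave no calls either. Of these, 119 were tested, 0 were called higher or lower, 61 were positive and 58 negative, with a median log2 fold change of 0.02. Unadjusted, 5 were below 0.05, which is 4.2% beside 4.32% of all tested genes, and 8 did not overlap between the groups, which is 6.72% beside 4.59%. The 5 were Orc6, Cdc7, Prim1 and Slbp of replication and Ccnl1, a cyclin of RNA processing. Orc6, a subunit of the origin recognition complex, had 35, 50, 40 and 55 counts against 70, 74 and 93, with no overlap of CPM between the groups. The means were 3.65 ± 0.387 CPM (SD, n = 4) and 5.88 ± 0.83 CPM (SD, n = 3), and the log2 fold change was 0.69 ± 0.25 (SE) (edgeR, adjusted p = 0.847; exact permutation p = 0.0286, the smallest that 35 assignments allow). Prim1, the catalytic subunit of DNA primase, had 1.03 ± 0.41 (SE) and overlapped. In the list of origin licensing, replisome and nucleotide supply, 22 of 39 tested genes were positive, with a median of 0.10.

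Among 51 further genes of spindle, kinetochore and cytokinesis, 18 were tested, 12 of them positive, with a median of 0.16. Pttg1, securin, which guards sister chromatids until anaphase, had 529, 429, 787 and 1075 counts in G3 and 610, 1841 and 1303 in PGC1aOE. This repeats the order seen in Cdc20 and Cenpa, with G3 4 and G3 PGC1aOE 2 and 3 high, and its log2 fold change was 0.68 ± 0.39 (SE) (edgeR, adjusted p = 0.847). Cks1b, a CDK subunit, had 0.76 ± 0.39 (SE). The summed CPM of the list was 131, 123, 180 and 195 in G3 and 142, 259 and 213 in PGC1aOE. That sum rests largely on Pttg1, which held 610 of 1837 counts in G3 PGC1aOE 1 and 1841 of 3567 in G3 PGC1aOE 2. The 42 genes of the list with at most 40 counts in every library, a class set after seeing the values, leave Pttg1 out. They summed to 16.6 to 22.98 CPM in G3 and to 19.8, 31.9 and 27.1 CPM in PGC1aOE replicates 1 to 3. There G3 PGC1aOE 1 lay inside the G3 range and the rest of its group above it.

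The remaining lists held restraints and regulators of the cycle. Of 16 tested pocket proteins, E2F factors and MuvB subunits, 11 were negative, with a median of −0.12. The retinoblastoma relative Rbl2, a repressor in resting cells, had 417, 755, 450 and 540 counts in G3 and 558, 141 and 339 in PGC1aOE, and was lowest in G3 PGC1aOE 2 and 3, while G3 4, at 40.6 CPM, lay among the other G3 libraries (log2 fold change −0.74, SE 0.40). E2f5, a repressor E2F, had 0.55 ± 0.29 (SE). For the APC/C and SCF ubiquitin ligases the median was 0.08, with 10 of 18 positive, and Fbxo5, an inhibitor of the APC/C, had 0.90 ± 0.42 (SE), while Rbx1, the RING subunit of SCF, had 0.53 ± 0.29 (SE). For other cyclins and CDKs the median was −0.06, with 12 of 28 positive. Ccnl1 had 0.47 ± 0.20 (SE) and did not overlap between the groups, and Cdk13, a kinase of transcription elongation, had −0.42 ± 0.21 (SE). All of these had an adjusted p of 0.847 in edgeR.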

How the data were processed

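RNA was sequenced from 7 left ventricles, and libraries were grouped by their title and genotype label. The authors deposited read counts per Ensembl gene, as unscaled whole numbers, and FPKM, which could be rebuilt from those counts with the column sums and a single length for each gene (to within 0.0023 bp). The submitters' processing notes name CASAVA, Bowtie 0.12.2 and build mm9. The counting program and its use of strand are not stated in them. The TruSeq kit named in the labels' protocols does not mark strand, so overlapping genes and pseudogene copies are uncertain.

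Symbols matched 21748 of 22027 genes. The members and all lists were chosen with earlier results of these data known. After TMM scaling, filterByExpr set the genes tested (12674 kept, 9353 left out). edgeR 4.0.16 under R 4.3.3 gave the quasi-likelihood test (2-sided, robust, group as the only term, Benjamini-Hochberg over all tested genes at 0.05). Log2 fold changes are G3 PGC1aOE minus G3, with a prior count of 2 for log2 CPM. Single members were also compared by exact permutation over 35 assignments. Intervals are at 95%. The scripts were tested on simulated data. Total counts per library limit the sparse members, since 1 count is worth 0.0727 to 0.0911 CPM.

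Values in every library are given for members past the threshold, for the tested member of smallest p and the member of highest FPKM in each role, for members under the filter, and for Mki67 and Top2a. From each wider list the 2 tested genes of smallest p are named, and from each marker list the 2 of highest CPM. One marker list is not reported here. Cdc7 and Slbp were named after their values were seen. Alternatives were scaling by RLE or upper quartile, no filter or one of 1 CPM in 3 libraries, DESeq2 1.42.0, limma 3.58.1 voom, limma on log2 FPKM (pseudocount 1 or 0.1), the code number or code text as a covariate, a replicate block and leaving out each library. The code number entered its fit as below 80 or 80 and above, and the code text as G2 or G3. Scaling by library totals was added after seeing the data.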

Additional observations from a re-analysis of the deposited data

Results flagged for a closer look

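Of 51 groups of values of the 4 G3 libraries, examined for a library far from the others, 4 stood out. The 3 PGC1aOE libraries were too few for this rule and were not examined. Such a rule marks about 1 in 20 groups by chance, a rate that does not hold for counts near 0 such as those of Cdc25c. Top2a was high in G3 4, at 1.202 CPM from 16 counts, against 3 counts in each of the other 3. Cdc25c had its only G3 count in G3 4, at 0.0751 CPM. Cenpe was high in G3 3, at 0.538 CPM from 6 counts, against 1, 1 and 0. Rrm2 was low in G3 1, at 0.638 CPM from 7 counts, against 15, 12 and 14.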

How the results depend on the processing

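No member was called under any of the 18 alternatives, among which the smallest adjusted p of a member was 0.113, without G3 PGC1aOE 1. In that fit 7 of 32 tested members had an unadjusted p below 0.05 (Cdc20, Cdk1, Cdk4, Cdkn1c, E2f1, Mki67 and Top2a), beside 19.1% of all genes. The other alternatives gave 0 to 2 such members. The median log2 fold change of the tested members lay between −0.03, with the code number as a covariate, and 0.25, without G3 PGC1aOE 1. With library totals in place of TMM, the median log2 CPM difference of all 43 members was 0.06, against 0.17, and the log2 ratio of the summed sparse members 0.31, against 0.47.

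Of 209 values of the 12 members described in every library, 12 had the opposite sign. Top2a had −0.14 with the code number covariate. Pcna had −0.077 and −0.080 on log2 FPKM with pseudocounts of 1 and 0.1, −0.10 with the code number and −0.013 with the text of the code as covariates, and −0.15 to 0.15 over the fits that leave out a library. Ccnd2 had −0.49 to 0.080 over those fits. Cdkn1b had 0.10 with the code number covariate and −0.30 to 0.13 over those fits. The cause was not tested.

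Libraries of equal number did not deviate together in all 3 pairs (correlations 0.38, 0.26 and −0.00), and G3 3 did not correlate best with its own number. A replicate block over those 3 pairs called 0 members and 4 of 12586 genes, and the median of the members was 0.20. Depth limits the 15 members left out by the filter, which were not in the main test.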
